A study of Bos taurus with 8 samples.

Results

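GADD45G, RGCC, MTUS1 and NUAK2 are 4 genes linked to growth arrest, control of the cell cycle and stress kinase signaling, described here in bovine endothelial cells (EC) exposed to leukemia inhibitory factor (LIF). They are 4 of the 25889 rows of the count table and 4 of the 111 Ensembl identifiers for which a gene name was at hand. Their choice rested on measured values, because every named identifier had been called by the depositors as changed after LIF in choroidal cells. The change after LIF in choroidal cells is therefore given below as a description with no test, and the same holds for every value that contains it.

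RNA was sequenced from bovine choroidal EC (BCE cells) and bovine aortic EC (BAE cells), 2 libraries in each of 4 groups. Cells of both kinds were bought as cultured EC and used within a limited range of passages. BCE cells had been maintained with bFGF and VEGF on fibronectin, and BAE cells without either factor. After 3 h in assay medium, which held 10% bovine calf serum for BCE cells and 1% for BAE cells, each kind received LIF at 10 ng/ml or vehicle (bovine serum albumin in PBS) for 6 h. The 4 groups were therefore vehicle-treated BAE cells, LIF-treated BAE cells, vehicle-treated BCE cells and LIF-treated BCE cells. Serum and maintenance medium changed together with the cell type, so the parts played by cell type and medium cannot be told apart. The methods call the libraries of a group biological replicates, while the labels do not say from which cultures or animals they came. The p-values therefore measure the spread between these libraries only, and the test takes part of each gene's spread from the other genes. The study set both cell types side by side because LIF slows the growth of BAE cells and stimulates that of BCE cells. Growth was read after several days of LIF, later than the 6 h of the RNA. The paper attributes the loss of BAE growth largely to cell death through the protease cathepsin L. It proposes that cell cycle arrest also plays a part. A link between the 4 genes and growth was not tested here.

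LIF is a cytokine of the interleukin-6 family that signals through its receptor LIFR and the shared chain gp130 to JAK kinases and STAT3. Progress through the cell cycle is driven by cyclins bound to cyclin-dependent kinases, and growth arrest comes about when these complexes are held back or when stress kinases of the p38 and JNK type are switched on. GADD45G and RGCC encode proteins that touch cyclin-dependent kinase CDK1 itself, MTUS1 encodes proteins of the microtubules that restrain proliferation, and NUAK2 encodes a stress-responsive protein kinase.

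The 8 libraries held between 18600598 and 35269335 counts, and between 15236 and 15768 genes were detected in each. Levels are given in CPM, a gene's counts brought to the same library size for all libraries with TMM factors, and 3 counts correspond to between 0.0873 and 0.156 CPM. Replicate libraries of a group correlated at r between 0.993 and 0.994 across genes on the log2 CPM scale, and in each group they differed by more than sampling noise. None of the 28 markers of endothelial, mural, fibroblast, leukocyte or pigment epithelial cells was among the named identifiers, so the labelled cell types were not checked against markers here. The levels are those of whole cultures, in which fewer expressing cells and less RNA per cell cannot be told apart.

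GADD45G (ENSBTAG00000003033) encodes a small nuclear protein induced by stress, which binds the complex of cyclin B with CDK1 and activates the kinase MAP3K4 upstream of p38 and JNK. It was the member with the fewest reads. In vehicle-treated BAE cells its level was 0.378 CPM in replicate 1 and 0.229 CPM in replicate 2, resting on 13 and 5 counts. With LIF the BAE libraries stood at 1.58 and 1.71 CPM, from 33 and 44 counts. Both LIF libraries lay above both vehicle libraries, and the ratio of a LIF library to a vehicle library ran from 4.17 to 7.46. In BCE cells the level was 0.773 and 1.04 CPM with vehicle, from 23 and 25 counts, and 3.02 and 2.39 CPM with LIF, from 78 and 46 counts. The same ordering of LIF above vehicle was thus seen in BCE cells. Counting error alone was wide at these depths: the exact Poisson 95% interval ran from 1.62 to 11.7 counts for the library with 5 counts and from 61.7 to 97.3 for that with 78. Such intervals cover counting error only.

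RGCC (ENSBTAG00000034885), also called RGC-32, is a response gene to complement whose protein binds CDK1 and which in endothelium is known as a hypoxia-induced restraint on angiogenesis. Its levels in vehicle-treated BAE cells were 59.2 and 56.6 CPM, and in LIF-treated BAE cells 38.0 and 36.6 CPM. In BCE cells they were 80.8 and 77.1 CPM with vehicle and 46.0 and 47.9 CPM with LIF. The LIF libraries were below the vehicle libraries in both cell types, and the SD of each pair, at most 2.61 CPM, was small beside the gap between them. This was the member with the most reads, between 795 and 2404 counts per library.

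MTUS1 (ENSBTAG00000039682) encodes the ATIP proteins, which bind microtubules and the angiotensin receptor AT2 and are known as tumour suppressors. The vehicle-treated BAE libraries stood at 6.40 and 6.32 CPM and the LIF-treated ones at 23.1 and 26.7 CPM. In BCE cells MTUS1 was at 10.7 and 11.2 CPM with vehicle and at 17.2 and 17.5 CPM with LIF. The vehicle-treated BAE libraries were the lowest of all 8 and the LIF-treated BAE libraries the highest, with all BCE libraries between them.

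NUAK2 (ENSBTAG00000047727), also called SNARK, is a kinase related to AMPK that is activated by LKB1 and acts on the myosin phosphatase and so on actomyosin tension. In BAE cells its level was 24.7 and 20.9 CPM with vehicle and 14.8 and 18.0 CPM with LIF. In BCE cells it was 17.8 and 19.5 CPM with vehicle and 12.7 and 13.1 CPM with LIF. LIF libraries lay below vehicle libraries in both cell types, but replicates were farther apart in BAE than in BCE cells, with an SD of 2.67 and 2.27 CPM in the BAE groups against 1.19 and 0.251 CPM in the BCE groups.

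**Figure D1:**
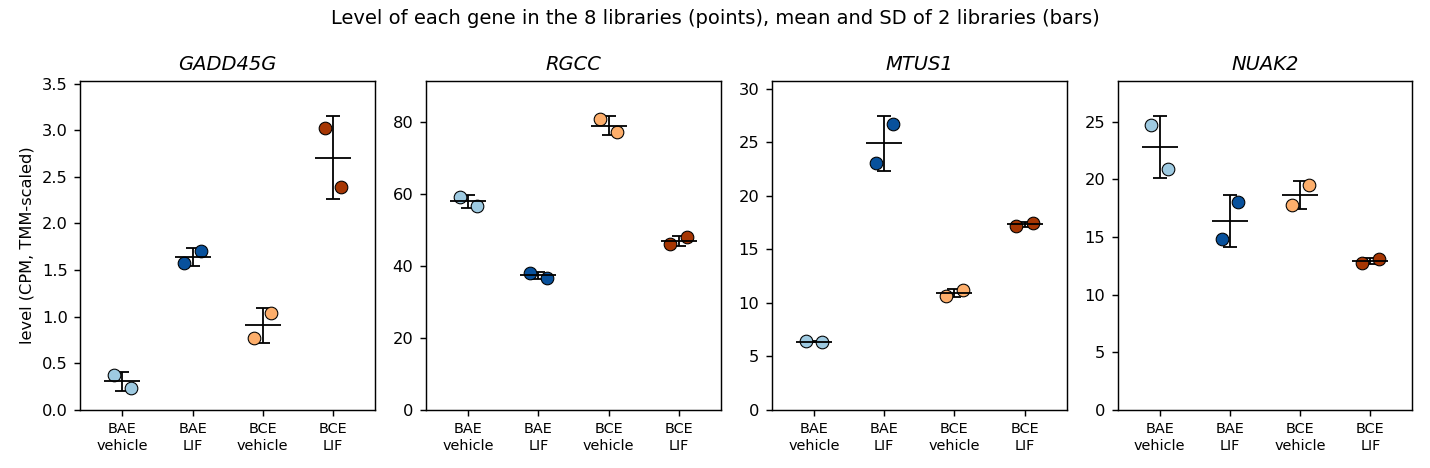
Level of GADD45G, RGCC, MTUS1 and NUAK2 in CPM (vertical axis, linear from 0, own scale for each gene) in the 4 groups; points are single libraries, the long line is the mean of 2 libraries and the bars its SD. GADD45G and MTUS1 are higher with LIF than with vehicle in both cell types, RGCC and NUAK2 lower, and MTUS1 has its lowest and its highest level in BAE cells.

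The order of the group means differed from gene to gene. GADD45G ran from vehicle-treated BAE cells (0.304 ± 0.105 CPM, SD, n = 2) through vehicle-treated BCE cells (0.905 ± 0.187) and LIF-treated BAE cells (1.64 ± 0.0936) to LIF-treated BCE cells (2.71 ± 0.446). RGCC ran from LIF-treated BAE (37.3 ± 0.930) and LIF-treated BCE (46.9 ± 1.34) to vehicle-treated BAE (57.9 ± 1.86) and vehicle-treated BCE cells (78.9 ± 2.61). For both genes the libraries of neighbouring groups did not overlap. MTUS1 ran from vehicle-treated BAE (6.36 ± 0.0569) and vehicle-treated BCE (10.9 ± 0.331) to LIF-treated BCE (17.4 ± 0.225) and LIF-treated BAE cells (24.9 ± 2.54), again without overlap. Groups without overlap were common: 77.3% of genes tested had them between the vehicle-treated cell types and 80.9% between the LIF-treated ones. Between the BCE groups the share was 39.8%, and there the separation of MTUS1 follows from its choice. No share was computed for neighbours that differ in both cell type and treatment. Nothing is read from these separations. For NUAK2 the order was LIF-treated BCE (12.9 ± 0.251), LIF-treated BAE (16.4 ± 2.27), vehicle-treated BCE (18.6 ± 1.19) and vehicle-treated BAE cells (22.8 ± 2.67). In that order LIF-treated BAE cells, at 14.8 to 18.0 CPM, overlapped with vehicle-treated BCE cells, at 17.8 to 19.5 CPM, so these neighbours were not separated beyond their spread.

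In BAE cells, whose growth LIF slows, GADD45G and MTUS1 rose and RGCC and NUAK2 fell after LIF. The depositors' calls that gave the genes their names came from BCE libraries, but the set was put together with earlier results of all 8 libraries known. All 4 members passed the filter on low counts and the threshold of 0.05 on the adjusted p of edgeR's quasi-likelihood test, whereas 22.2% of the 13034 genes tested did so, 13.6% as higher and 8.55% as lower with LIF. That count has to be read beside the other named genes: of 107 tested in BAE cells, 80 rose and 20 fell. All 4 members also had groups that did not overlap, as did 61.2% of all genes tested. One of these members, GADD45G, passed the filter only through its LIF libraries. At 10 or more counts in every library GADD45G was not tested, and 3 members passed the threshold.

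GADD45G rose 5.22-fold in BAE cells, a log2 fold change of 2.38 ± 0.398 (standard error, 95% interval 1.54 to 3.23, adjusted p = 0.000325 by edgeR). It ranked 17 of 13034 genes by size of the rise. GADD45G passed the filter through its LIF libraries, since its vehicle libraries held 13 and 5 counts. With no filter on low counts the log2 fold change was again 2.38, but its standard error was larger (0.432). The adjusted p by edgeR was smaller there (6.52e-07), which is not read as firmer evidence, since the counts of GADD45G were the same. Over all alternatives that tested it the log2 fold change lay between 2.14 and 2.84.

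MTUS1 rose 4.01-fold, a log2 fold change of 2.00 ± 0.105 (interval 1.78 to 2.22, adjusted p = 5.03e-10 by edgeR), and ranked 29 of all genes. An absolute change larger than that of GADD45G was seen in 0.215% of genes and larger than that of MTUS1 in 0.353%. Among the 107 named genes tested in BAE cells GADD45G took place 4 and MTUS1 place 9 by log2 fold change.

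The falls were smaller. RGCC fell by 34.2%, a log2 fold change of -0.60 ± 0.0651 (interval -0.74 to -0.47, adjusted p = 3.29e-06 by edgeR). NUAK2 fell by 26.6%, a log2 fold change of -0.45 ± 0.105 (interval -0.67 to -0.22, adjusted p = 0.00536 by edgeR). A larger absolute change was found in 7.35% of genes for RGCC and in 12.9% for NUAK2, so neither stood far out from the BAE response, whose median absolute log2 fold change was 0.14 over all genes tested. The call on NUAK2 rested on single libraries. Without replicate 1 of the vehicle-treated BAE cells its log2 fold change was -0.32 (adjusted p = 0.0503), and without replicate 1 of the LIF-treated BAE cells it was -0.33 (adjusted p = 0.0623), where the adjusted p over all alternatives lay between 5.65e-06 and 0.0623.

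**Figure D2:**
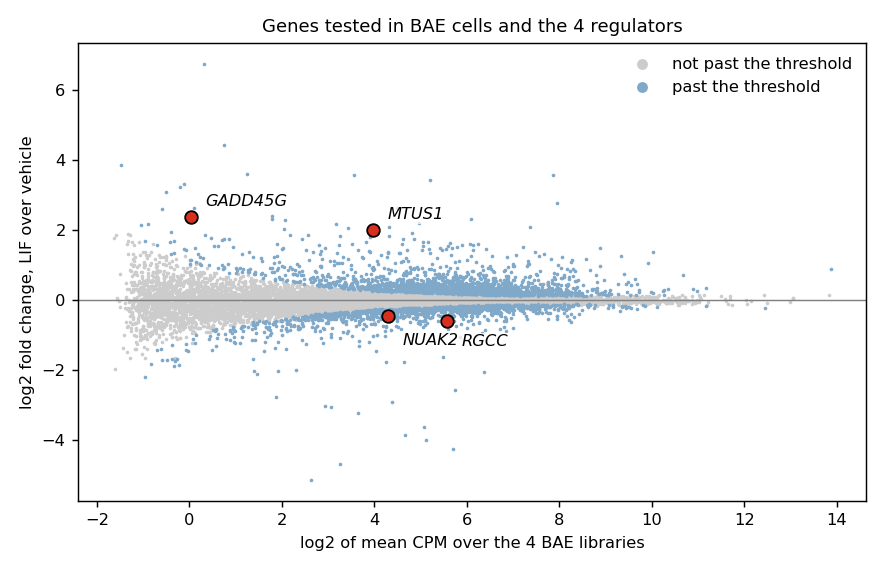
Log2 fold change of LIF over vehicle in BAE cells (vertical axis) against the log2 of the mean CPM of the 4 BAE libraries (horizontal axis) for 13034 genes; blue points passed the threshold of 0.05 on the adjusted p, grey points did not, and red points are the 4 genes. GADD45G (2.38) and MTUS1 (2.00) lie above nearly all genes, while RGCC (-0.60) and NUAK2 (-0.45) lie below 0 among many other genes.

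In BCE cells, whose growth LIF stimulates, the 4 genes were selected for their change, so the values are a description. GADD45G was 3.03-fold higher with LIF (log2 fold change 1.60 ± 0.298, standard error) and MTUS1 1.59-fold higher (0.67 ± 0.100). RGCC was at 0.594 times its vehicle level (-0.75 ± 0.0634) and NUAK2 at 0.694 times (-0.53 ± 0.101). In the edgeR fit 0.922% of the 13014 genes passed the threshold in these cells, 39.8% had groups that did not overlap, and the median absolute log2 fold change was 0.09. All 4 members had groups apart, and nothing is read from this, since it follows from their choice. Just inside the threshold of this fit were an unnamed gene (ENSBTAG00000007307) at 0.59 ± 0.116 and VEGFC, an angiogenic ligand, at 0.29 ± 0.0559, and just outside it were ENSBTAG00000005025 at 0.38 ± 0.0735 and ENSBTAG00000012252 at 0.59 ± 0.115.

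The direction of each of the 4 changes was the same in both cell types. The same held for the 8 other genes of the cell cycle and growth arrest lists compared below, which also owe their names to the BCE calls. The share of all genes with equal directions was not computed, and nothing is read from this agreement. The ratio of a LIF library to a vehicle library ran from 2.31 to 3.91 for GADD45G in BCE cells, below the range of 4.17 to 7.46 in BAE cells. For MTUS1 it ran from 1.54 to 1.64 in BCE cells and from 3.61 to 4.23 in BAE cells, with no overlap between these ranges. For RGCC the ranges were 0.569 to 0.621 in BCE and 0.619 to 0.671 in BAE cells, and for NUAK2 0.654 to 0.735 and 0.599 to 0.861. As a log2 difference of the LIF effects, BCE minus BAE, MTUS1 stood at -1.30 ± 0.152 (standard error) and GADD45G at -0.75 ± 0.491. RGCC, at -0.12 ± 0.0864, and NUAK2, at -0.05 ± 0.164, lay closer to 0. Leaving out 1 library moved the difference for GADD45G to -1.22 without replicate 1 and to -0.50 without replicate 2 of the vehicle-treated BAE cells. That for RGCC ran from -0.17, without replicate 2 of the vehicle-treated BCE cells, to -0.08, without replicate 2 of the vehicle-treated BAE cells. The sign for NUAK2 turned without replicate 2 of the vehicle-treated BAE cells (0.06) or without replicate 2 of the LIF-treated BAE cells (0.10). The difference contains the contrast that chose the genes and is given without a test.

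**Figure D3:**
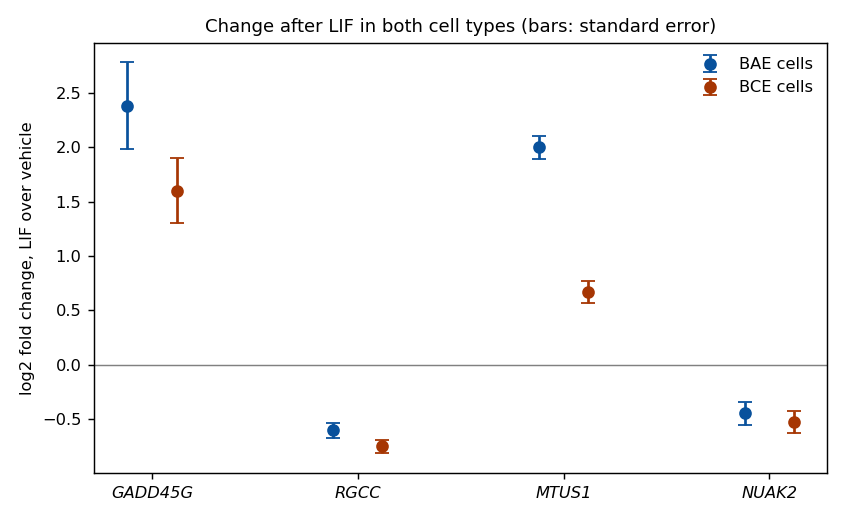
Log2 fold change of LIF over vehicle (vertical axis) for each gene in BAE cells (blue) and BCE cells (red-brown); points are fitted values from 4 libraries each and bars the standard error. The points of a gene lie on the same side of 0 in both cell types, and those of MTUS1 are farthest apart (2.00 in BAE and 0.67 in BCE cells). The share of all genes on the same side in both was not computed.

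Without LIF the cell types differed in all 4 genes, with BCE above BAE cells for GADD45G, RGCC and MTUS1 and below for NUAK2. This comparison, like the one with LIF, shares its BCE libraries with the contrast that chose the genes and its BAE libraries with the LIF effect in BAE cells. The p-values of both comparisons are therefore not independent of how the genes were chosen. GADD45G was 2.79-fold higher in BCE cells (log2 fold change 1.48 ± 0.457, interval 0.48 to 2.48, adjusted p = 0.0167 by edgeR). It passed the filter through its BCE libraries, since the BAE libraries held 13 and 5 counts, and with no filter its log2 fold change was again 1.48 (adjusted p = 0.0169). RGCC was 1.36-fold higher (0.44 ± 0.0670, interval 0.30 to 0.59, adjusted p = 0.000157 by edgeR), and MTUS1 1.71-fold higher (0.77 ± 0.128, interval 0.49 to 1.06, adjusted p = 0.000315 by edgeR). NUAK2 in BCE cells was at 0.811 times its BAE level (-0.30 ± 0.108, interval -0.54 to -0.06, adjusted p = 0.0336 by edgeR). A call was the common outcome here: 53.8% of the 13426 genes tested passed the threshold, 26.2% as higher and 27.6% as lower in BCE cells, and 77.3% had groups that did not overlap, as all 4 members did. A larger absolute difference was seen in 13.0% of genes for GADD45G, in 24.4% for MTUS1, in 39.5% for RGCC and in 52.4% for NUAK2.

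The calls on GADD45G and NUAK2 between the vehicle-treated groups were lost in other settings, and those on RGCC and MTUS1 were kept in each one run. With the DESeq2 test the log2 fold change of GADD45G was 1.54 (adjusted p = 0.0846) and that of NUAK2 -0.30 (adjusted p = 0.0792). GADD45G also missed the threshold without either vehicle-treated BAE library (1.94, adjusted p = 0.0579, without replicate 1 and 1.23, adjusted p = 0.140, without replicate 2) and without replicate 2 of the vehicle-treated BCE cells (1.28, adjusted p = 0.0926). NUAK2 missed it without replicate 1 of the vehicle-treated BAE cells (-0.18, adjusted p = 0.356) and without replicate 1 of the vehicle-treated BCE cells (-0.25, adjusted p = 0.0603). Over all alternatives the adjusted p lay between 0.00520 and 0.140 for GADD45G and between 0.00654 and 0.356 for NUAK2.

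With LIF the order of the cell types was kept for GADD45G, RGCC and NUAK2 and turned for MTUS1. GADD45G was 1.66-fold higher in LIF-treated BCE than in LIF-treated BAE cells (log2 fold change 0.73 ± 0.259, interval 0.20 to 1.26, adjusted p = 0.0154 by edgeR), and RGCC 1.26-fold higher (0.33 ± 0.0664, interval 0.19 to 0.47, adjusted p = 8.24e-05 by edgeR). MTUS1 in BCE cells was at 0.694 times its BAE level (-0.53 ± 0.0913, interval -0.71 to -0.34, adjusted p = 1.12e-05 by edgeR). The libraries show the turn directly, since both BCE libraries were above both BAE libraries with vehicle and below both with LIF. NUAK2 was at 0.783 times its BAE level (-0.35 ± 0.108, interval -0.57 to -0.13, adjusted p = 0.00541 by edgeR). All 4 members passed the threshold with groups apart. Of the 13217 genes tested 63.9% passed it, 31.7% as higher and 32.2% as lower in BCE cells, and 80.9% had groups that did not overlap. A larger absolute difference was seen in 26.0% of genes for GADD45G, in 35.1% for MTUS1, in 47.9% for NUAK2 and in 50.2% for RGCC. As with vehicle, these p-values and calls are not independent of the choice of the genes.

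Again the calls on GADD45G and NUAK2 were lost in some settings. With the DESeq2 test the values were 0.72 (adjusted p = 0.110) for GADD45G and -0.35 (adjusted p = 0.0505) for NUAK2. GADD45G missed the threshold without replicate 1 of the LIF-treated BAE cells (0.68, adjusted p = 0.0580) and without replicate 1 of the LIF-treated BCE cells (0.54, adjusted p = 0.215). NUAK2 missed it without replicate 2 of the LIF-treated BAE cells (-0.20, adjusted p = 0.172). Over all alternatives the adjusted p ran from 0.00930 to 0.215 for GADD45G and from 0.000108 to 0.172 for NUAK2, while MTUS1 kept its call with adjusted p between 6.04e-09 and 0.000424.

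**Figure D4:**
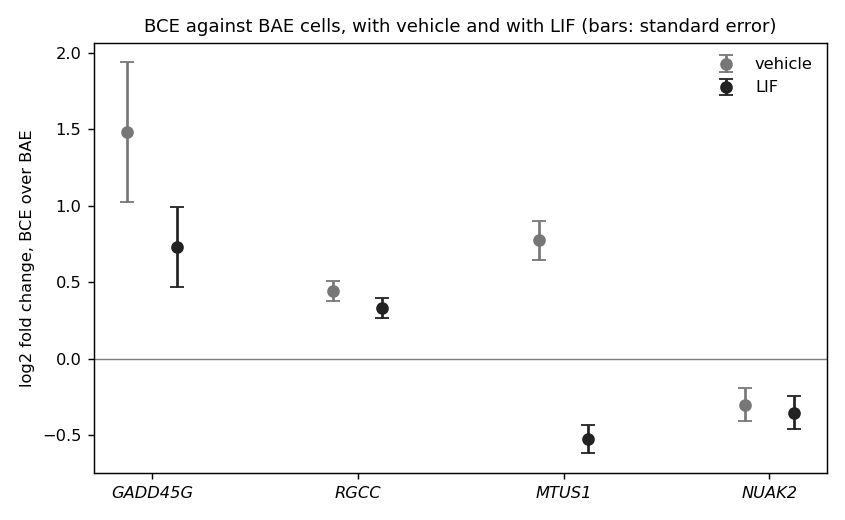
Log2 fold change of BCE over BAE cells (vertical axis) for each gene with vehicle (grey) and with LIF (black); points are fitted values from 4 libraries each and bars the standard error. GADD45G and RGCC lie above 0 and NUAK2 below 0 under both conditions, while MTUS1 lies above 0 with vehicle (0.77) and below 0 with LIF (-0.53).

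Among the other 110 named genes, those with levels most like each member over the 8 libraries were taken by Pearson's r of log2 CPM. The 8 points share 4 groups, and these r describe the libraries only. All named genes, the members among them, had been called as changed after LIF in BCE cells, whose libraries enter r. High r among them, and the signs of r between members, follow in part from that choice. MTUS1 had the closest matches: ICAM1, a leukocyte adhesion molecule, at r = 0.993, the aryl hydrocarbon receptor AHR at 0.991 and CEBPD, an acute phase transcription factor, at 0.988. These were also its 3 closest matches among all 13645 other genes. Like MTUS1, AHR had its lowest mean in vehicle-treated BAE cells (11.5 CPM) and its highest in LIF-treated BAE cells (51.3 CPM), with BCE cells at 21.5 and 39.1 CPM between them.

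GADD45G was most like MT2, a metallothionein (r = 0.984), TNFRSF1A, a receptor for tumour necrosis factor (0.974), and the transcription factor ETS2 (0.945). With a smaller prior count of 0.5 the third place went to TMEM204 (0.947). The MT2 means rose in the same order as those of GADD45G, from 591 CPM in vehicle-treated BAE and 1017 in vehicle-treated BCE cells to 1505 in LIF-treated BAE and 1667 in LIF-treated BCE cells. RGCC was most like FDFT1, squalene synthase (0.944), ID3, an inhibitor of helix-loop-helix transcription factors (0.901), and INSIG1, a sterol sensor (0.893). NUAK2 had weaker matches, with PHLDB2, a protein of the cell cortex (0.847), the receptor chain IL7R (0.791) and the chemokine receptor CXCR4 (0.683). Among all 13645 other genes MT2 ranked 1, TNFRSF1A 3 and ETS2 13 for GADD45G. For RGCC FDFT1 ranked 9, ID3 36 and INSIG1 43, and for NUAK2 the best match ranked only 124. Genes without a name were therefore closer to RGCC and NUAK2 than any named gene. Between the members r was 0.87 for GADD45G with MTUS1, -0.88 for GADD45G with NUAK2, -0.72 for MTUS1 with NUAK2, -0.70 for RGCC with MTUS1, -0.50 for GADD45G with RGCC and 0.45 for RGCC with NUAK2.

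Lists of cell cycle and growth arrest genes were compared as far as their genes had a name, which gave 12 of 160 symbols, the 4 members among them. GADD45G was the 1 named member of the GADD45 family of 3 and NUAK2 the 1 named member of the NUAK kinases of 2. The cyclins, among them CCNA2 and CCNB1, the inhibitors of cyclin-dependent kinases and the S, G2 and M phase genes were not analysed here. Of the 8 other listed genes, all tested in BAE cells, 7 rose and 1 fell, against 13.6% and 8.55% of all genes tested and against 80 and 20 of the 107 named genes. Their names, too, come from the calls in BCE cells, so this count says little about the lists.

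Of 21 growth arrest and p53 target genes FAS and PLK2 had a name. FAS, a death receptor, rose in BAE cells beside GADD45G and MTUS1, with a log2 fold change of 1.74 ± 0.0833 (adjusted p = 1.74e-10 by edgeR), and stood at 1.35 in BCE cells. PLK2, a polo-like kinase induced by p53, fell beside RGCC and NUAK2 by 0.60 ± 0.0949 on the log2 scale (adjusted p = 0.000188 by edgeR), and stood at -0.51 in BCE cells. A list of 6 genes that the study's own gene ontology terms for the cell cycle held was chosen on the BCE libraries and is no independent evidence of its direction. In BAE cells 5 of its 6 genes rose and 1, PLK2, fell, and the median of their log2 fold changes was 0.81, where that of all genes was about 0. Here too the shares of all genes called were 13.6% as higher and 8.55% as lower, and 80 of the 107 named genes rose. The largest rises were those of ID1 (1.45 ± 0.0709, adjusted p = 2.23e-10 by edgeR), JUNB (1.17 ± 0.0477, adjusted p = 2.70e-11 by edgeR) and STAT3 (0.99 ± 0.0415, adjusted p = 3.88e-11 by edgeR), and each of these was smaller than the rise of MTUS1. ID1 is an inhibitor of helix-loop-helix factors, JUNB a subunit of AP-1 and STAT3 the transcription factor downstream of LIF. MYC, a driver of proliferation, rose in BAE cells by 0.89 ± 0.0441 on the log2 scale (adjusted p = 2.49e-10 by edgeR) and stood at 0.31 in BCE cells. The paper, in contrast, reports that MYC went up in BCE cells only. Its qRT-PCR of MYC followed a longer LIF treatment than the 6 h of the RNA here. The results thus differ in time and assay, and the cause of the disagreement was not tested.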

How the data were processed

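Paired-end reads had been aligned by the authors to the bovine assembly UMD 3.1 and counted per gene, and the deposited raw counts, 1 column per library and without normalization, were used. The submitters' processing notes name Bowtie2 2.2.3, TopHat2 2.0.12, HTSeq 0.6.1 and DESeq 1.18.0. The strand setting and the treatment of reads that map to several genes are not given in the sources used here, so overlapping genes and near-identical copies are uncertain. The authors also deposited 2 comparison tables that are identical byte for byte and hold their own fold changes, p-values and mean counts for BCE cells. These were used for gene names only, taken from the Swiss-Prot hit of each gene. Where a supplementary gene list of the paper gave a name for the same identifier, that name was used. For RGCC, MTUS1 and NUAK2 the Swiss-Prot hit is a protein of another mammal. In all, 111 identifiers had a name.

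The sample titles gave each library's group and replicate number, and count columns were matched by the sample descriptions, whose numbers differ from those of the titles. The members and gene lists were chosen with earlier results of these data known. Counts were analysed in R 4.3.3 with edgeR 4.0.16: filterByExpr (minimum count 10, minimum total 15), TMM scaling, and the quasi-likelihood test with Benjamini-Hochberg adjustment over all genes tested and a threshold of 0.05. Each comparison was fitted on its own 4 libraries, and the difference of LIF effects on all 8, without a block for the replicate number. Standard errors were derived from the log2 fold change and the F statistic. For likeness the prior count of the log2 CPM values was 2. The procedure was also run on simulated data with the same spread for all genes, in which only well-counted genes were changed. That run says little about genes with as few counts as GADD45G in vehicle-treated BAE cells.

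The genes named were the 4 members, up to 3 rises and 3 falls of each gene list with the largest change in BAE cells among those past the threshold with groups apart, CCNA2, CCNB1 and MYC, the GADD45 and NUAK families, and the 3 named genes most like each member. Alternatives were DESeq2's size factors, the DESeq2 1.42.0 test, no filter, a stricter filter of 10 counts per library, a replicate block, 1 fit over all 8 libraries, total counts in place of TMM for the levels, a prior count of 0.5, and each library left out in turn. No sequence or coordinate is given, since no table of the files' build was used here.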

Additional observations from a re-analysis of the deposited data

Results flagged for a closer look

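MTUS1 differed between BCE and BAE cells in opposite directions with vehicle and with LIF. With vehicle both BCE libraries (10.7 and 11.2 CPM) lay above both BAE libraries (6.40 and 6.32 CPM), and with LIF both BCE libraries (17.2 and 17.5 CPM) lay below both BAE libraries (23.1 and 26.7 CPM). The log2 difference between these contrasts, equal to the LIF effect in BCE minus that in BAE cells, was -1.30. It was not tested, because it contains the contrast that chose the gene. Leaving out each library in turn gave values between -1.40 and -1.19. Serum differed between the cell types, at 10% and 1%, as did the maintenance medium. Their part in the difference was not tested and cannot be told apart from that of the cell type.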

How the results depend on the processing

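In every fit that leaves out a library, the lone library of a group is assumed to vary like the other group. Without 1 library, the log2 fold change of NUAK2 after LIF in BAE cells ranged from -0.60 to -0.32. Between the vehicle-treated cell types GADD45G ranged from 1.23 to 1.94, NUAK2 from -0.42 to -0.18, and the number of members past the threshold from 2 to 3. Between the LIF-treated cell types the ranges were 0.54 to 0.87 for GADD45G and -0.48 to -0.20 for NUAK2. The difference of the LIF effects for NUAK2 ran from -0.18 to 0.10 and turned sign without replicate 2 of the vehicle-treated (0.06) or of the LIF-treated BAE cells (0.10). With the DESeq2 test 2 members passed the threshold in either comparison of the cell types, as GADD45G (1.54 with vehicle, 0.72 with LIF) and NUAK2 (-0.30 and -0.35) missed it. The cause of these losses was not tested. RGCC and MTUS1 kept direction and call in every alternative. The number of genes called after LIF in BAE cells was 2889, against 1886 with the DESeq2 test and 1807 without replicate 1 of the LIF-treated BAE cells. At 10 or more counts in every library GADD45G was not tested after LIF in BAE cells or between vehicle-treated cells. With total counts in place of TMM, 7 mean levels moved by more than their SD. With a replicate block, GADD45G after LIF in BAE cells stood at 2.40, RGCC at -0.60, MTUS1 at 1.99 and NUAK2 at -0.44, and all 4 members passed the threshold in each comparison tested, so the block changed no call. Deviations of same-numbered libraries from their group means correlated at -0.0211 between the BAE groups and at 0.100 between the BCE groups, so the numbers were not taken as pairs. Both checks used the numbers of the titles, which differ from those of the count columns. They cannot show whether libraries were paired by column number. Depth limits GADD45G most, with 5 counts in its lowest library.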
